A study of Mus musculus with 5 samples.

Results

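Ribosome biogenesis and nucleolar factors were followed through osteoclast formation from mouse bone marrow macrophages. The genes were chosen by symbol in the platform annotation: Nop, Nol, Utp or Rrp followed by a number, Polr1a to Polr1e, or one of Bop1, Fbl, Ncl, Npm1, Ddx21, Dkc1, Pes1, Wdr12 and Gar1. This gave 48 of the 22180 genes that had an array row naming them alone. Of these, 47 were measured, meaning that the 5 arrays averaged 4.89 or more on the log2 scale, as they did for 12049 genes in all. The row naming Fbl also named another gene, so Fbl was not counted. Nol4 lay below the level filter.

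All samples were wild-type bone marrow cells from mice aged 10 weeks, grown on plastic with M-CSF at 20 ng/ml and RANKL at 30 ng/ml. M-CSF keeps macrophages and their precursors alive, and RANKL is the cytokine that turns them into osteoclasts, the cells that resorb bone. Day 0 stands for the macrophages, days 1, 2 and 3 for cells on their way to osteoclasts, and day 5 for osteoclasts called mature. The labels give both doses for every array, day 0 included. Whether the day 0 cells were taken before RANKL was added cannot be told from them. Each day was represented by 1 Affymetrix array, 5 in all, so no value has a replicate, no p-value is given, and each difference sets one array against another. The labels describe no culture kept without RANKL, so time in culture and the effect of RANKL cannot be told apart. The number of mice behind each array is not given in the sources used here.

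Ribosomes are built in the nucleolus, where RNA polymerase I transcribes the long precursor of ribosomal RNA. The small subunit processome folds and cuts this precursor, small nucleolar ribonucleoproteins (snoRNPs) guide its methylation and pseudouridylation, and further factors assemble the large subunit. Growing cells make many ribosomes, and the transcription factor MYC is known to drive many of these genes.

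The osteoclast label matched the markers: all 6 osteoclast markers were at least 2-fold higher at day 5 than at day 0, among them Ctsk at 6.54 and 13.29. Neutrophil markers were above the filter, with 5 of 5 higher at day 1 than at day 0 (by 0.09 to 0.40) and 5 of 5 lower at day 2 than at day 1 (by -0.55 to -1.43). Of 4 macrophage markers, 0 were higher and 4 lower at day 1 than at day 0 (median -1.02), with Adgre1 at -1.24 and Cx3cr1 at -1.80. At day 3, 3 of the 4 were higher than at day 2 (median 0.37), and Cx3cr1 was lower (-1.86). Cd68, Csf1r and Adgre1 lay between 10.18 and 13.23 on all arrays. Markers of other cells were few: 0 of 2 B cell, 0 of 1 erythroid, 1 of 3 T and NK cell, 2 of 4 stromal and 2 of 3 megakaryocyte markers with a row passed the filter. All but Pf4 (11.03 to 12.23) stayed at or below 5.82. The part of macrophages, neutrophils and these other cells in the results was not tested. Array medians lay between 4.88 and 4.92. Where a gene had 2 measured rows, the SD of the disagreement, expressed for 1 row over 442 genes, was 0.33 for day 1 against day 0, 0.30 for day 3 against day 2 and 0.42 for day 5 against day 0. This SD gives a scale for disagreement between rows read on the same arrays, and such rows can read different transcripts. It includes neither error shared by the rows of an array nor the spread between cultures.

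Most ribosome biogenesis genes were high on days 1 and 2 and low on days 0, 3 and 5. At day 1, 45 of the 47 measured genes were above day 0, or 95.7%, where 49.1% of all measured genes were. The median difference was 0.70 on the log2 scale, while the median of all measured genes was 0.00. Between days 2 and 3, 44 of 47 were lower, or 93.6%, against 45.5% of all measured genes, with a median of -0.66. Counting differences of at least 2-fold, 6 of 47 (12.8%) were higher at day 1 than at day 0, where 2.91% of all measured genes were, and 0 were at least 2-fold lower, where 4.17% were. The 6 were Dkc1, Polr1b, Nop16, Rrp9, Utp4 and Nop58, of which only Dkc1 and Polr1b stayed past 2-fold when arrays were centred on reference genes by their median level. At day 3, 16 of 47 (34.0%) were at least 2-fold lower than at day 2, where 3.91% of all measured genes were, and 0 were at least 2-fold higher, where 2.08% were. The 16 were Rrp1b, Dkc1, Nop58, Nop56, Nop16, Utp20, Nol10, Polr1b, Rrp9, Nop2, Utp4, Polr1a, Ddx21, Rrp15, Utp18 and Gar1. Counted from 1.5-fold, 30 of 47 were higher at day 1 than at day 0 and 30 lower at day 3 than at day 2, where 9.75% and 9.6% of all measured genes were. Most of the 47 were bright, with 42 above a filter at the 75th percentile of row means. The shares over all measured genes include dimmer rows and were not matched for level. In a bulk sample, fewer cells of a type and less RNA per cell cannot be told apart.

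The steps between these were small. Day 2 was below day 1 for 35 of 47 genes (74.5%, against 47.9% of all measured genes) with a median of -0.16, and 0 of 47 passed 2-fold in either direction. Of all measured genes, 2.46% were at least 2-fold higher and 0.556% lower in that step. From day 3 to day 5 the median was -0.03, with 20 genes higher and 27 lower (45.8% and 45.0% of all measured genes). Again 0 of 47 passed 2-fold, where 0.158% of all measured genes were higher and 0.116% lower by that size. Shares higher or lower by any size leave out measured genes that read the same on both arrays. The highest of the 5 values was at day 1 for 34 genes (24.8% of all measured genes) and at day 2 for 9 (13.0%), so for 91.5% it was on one of these days, against 37.8% of all measured genes. The lowest value was at day 5 for 23 genes (17.8% of all measured genes) and at day 3 for 15 (20.4%), so for 80.9% it was on one of these days, against 38.2% of all measured genes.

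**Figure D1:**
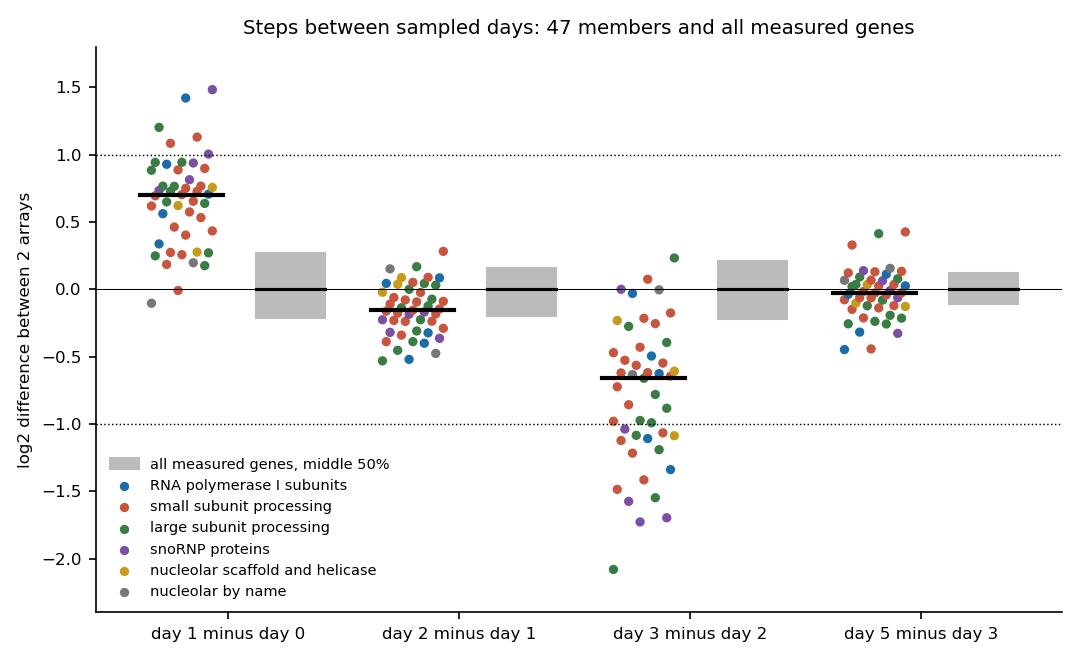
Log2 difference between neighbouring sampled days for each of the 47 measured ribosome biogenesis genes (points, coloured by role, thick line at their median). Grey boxes show the middle 50% of all 12049 measured genes with their median, and dotted lines mark 2-fold. Most points lie above the box at day 1 minus day 0 (median 0.70) and below it at day 3 minus day 2 (median -0.66), and nearer to 0 in the other steps.

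Across the whole culture the net difference was modest. At day 2, 3 of 47 genes (Polr1b, Dkc1 and Rrp12) were at least 2-fold higher than at day 0, where 5.18% of all measured genes were. At day 3, 2 of 47 (Rrp1b and Nop58) were at least 2-fold lower than at day 0, where 7.5% were. Day 5 was below day 0 for 36 of 47 genes (76.6%, against 49.2% of all measured genes), with a median of -0.28. At least 2-fold lower were 3 of 47 (6.38%), a share like that of all measured genes (6.56%), and 0 were at least 2-fold higher, where 6.78% of all measured genes were. The 3 were Rrp1b, Nop58 and Polr1a, and the last 2 were only 2.03-fold and 2.01-fold lower, so they ended just short of 2-fold, at -0.98 and -0.97 on the log2 scale, when each array was centred on the median of all measured genes. Set against day 1 instead, 23 of 47 (48.9%) were at least 2-fold lower at day 5, where 6.73% of all measured genes were, with a median of -0.95, and 0 were at least 2-fold higher, where 6.3% were. The comparisons with day 0 share one array, as do neighbouring steps, so they are not independent of each other.

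The rule used only gene symbols, and the promoters of these genes were looked at for the E-box CACGTG, the sequence that MYC binds with its partner MAX. CACGTG is its own reverse complement, so a search of one strand covers both. The window was 300 bases long, 250 before and 50 after the transcription start in RefSeq (build GRCm38.p6), and 38 of the 48 genes had such a window. CACGTG was found in 8 of these 38 (21.1%), in 11.6% of measured genes with a promoter and in 8.09% of all genes with one. A gene was counted if any of its windows held the motif, and some genes, such as Utp25, had several windows. The number of windows per gene was not matched between these shares. The 8 were Nol11, Nop2, Pes1, Rrp7a, Utp4, Utp18, Utp20 and Utp25. The median at day 1 against day 0 was 0.67 over the 8 and 0.75 over the other 30, and at day 3 against day 2 it was -0.90 and -0.72, and at day 5 against day 0 it was -0.48 and -0.28. Printed here are the 3 with the largest difference at day 5 against day 0, 5′ to 3′ on the strand of the gene, with CACGTG in capitals. For Rrp7a and Nol11 these are the 250 bases before the start, and for Utp20, whose motif begins 38 bases into the transcript, the 25 bases around it.
Utp20, chr10:88826765-88826789, minus strand: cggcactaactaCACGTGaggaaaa
Rrp7a, chr15:83122802-83123051, minus strand: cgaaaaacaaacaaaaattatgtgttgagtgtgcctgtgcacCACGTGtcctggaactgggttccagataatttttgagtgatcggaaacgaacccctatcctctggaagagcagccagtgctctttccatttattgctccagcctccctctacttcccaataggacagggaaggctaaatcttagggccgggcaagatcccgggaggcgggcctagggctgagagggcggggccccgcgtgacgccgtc
Nol11, chr11:107189382-107189631, minus strand: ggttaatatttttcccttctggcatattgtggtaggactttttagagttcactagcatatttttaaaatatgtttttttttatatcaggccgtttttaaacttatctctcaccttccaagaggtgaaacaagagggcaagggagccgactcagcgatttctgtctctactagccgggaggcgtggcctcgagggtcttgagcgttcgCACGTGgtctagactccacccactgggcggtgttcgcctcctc
The motif began 43 bases before the start in Nol11 and 208 bases before it in Rrp7a. A match describes these letters and shows neither binding nor a cause.

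Subunits of RNA polymerase I were all higher at day 1 than at day 0, where 49.1% of all measured genes were. The differences were 0.34 to 1.42 on the log2 scale, and the subunits then parted. Polr1b, the second-largest subunit, read 7.70, 9.12, 8.80, 7.46 and 7.42 at days 0, 1, 2, 3 and 5. Its day 1 value was 2.68-fold that of day 0 and its day 3 value 2.53-fold below day 2, and days 0, 3 and 5 lay close together. Polr1a, the largest and catalytic subunit, read 8.91, 9.25, 9.33, 8.23 and 7.91, so its increment at day 1 was small (0.34) and its day 3 value was 2.16-fold below day 2. Days 3 and 5 were the lowest Polr1a values, and day 5 was 2.01-fold below day 0. Polr1e, a subunit of the polymerase's peripheral heterodimer, read 5.98, 6.69, 6.17, 5.68 and 5.23, and was lower on each array after day 1 than on the one before.

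Polr1c and Polr1d, which RNA polymerase I shares with RNA polymerase III, ended 0.01 and 0.60 above day 0. Polr1c read 9.19, 10.12, 9.72, 9.09 and 9.21, a day 1 maximum with a return to the day 0 value. Polr1d read 8.68 at day 0 and then 9.24, 9.28, 9.25 and 9.28, so it was 0.56 higher at day 1 and stayed within 0.04 of that level, without the day 3 step of the other subunits (-0.03).

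**Figure D2:**
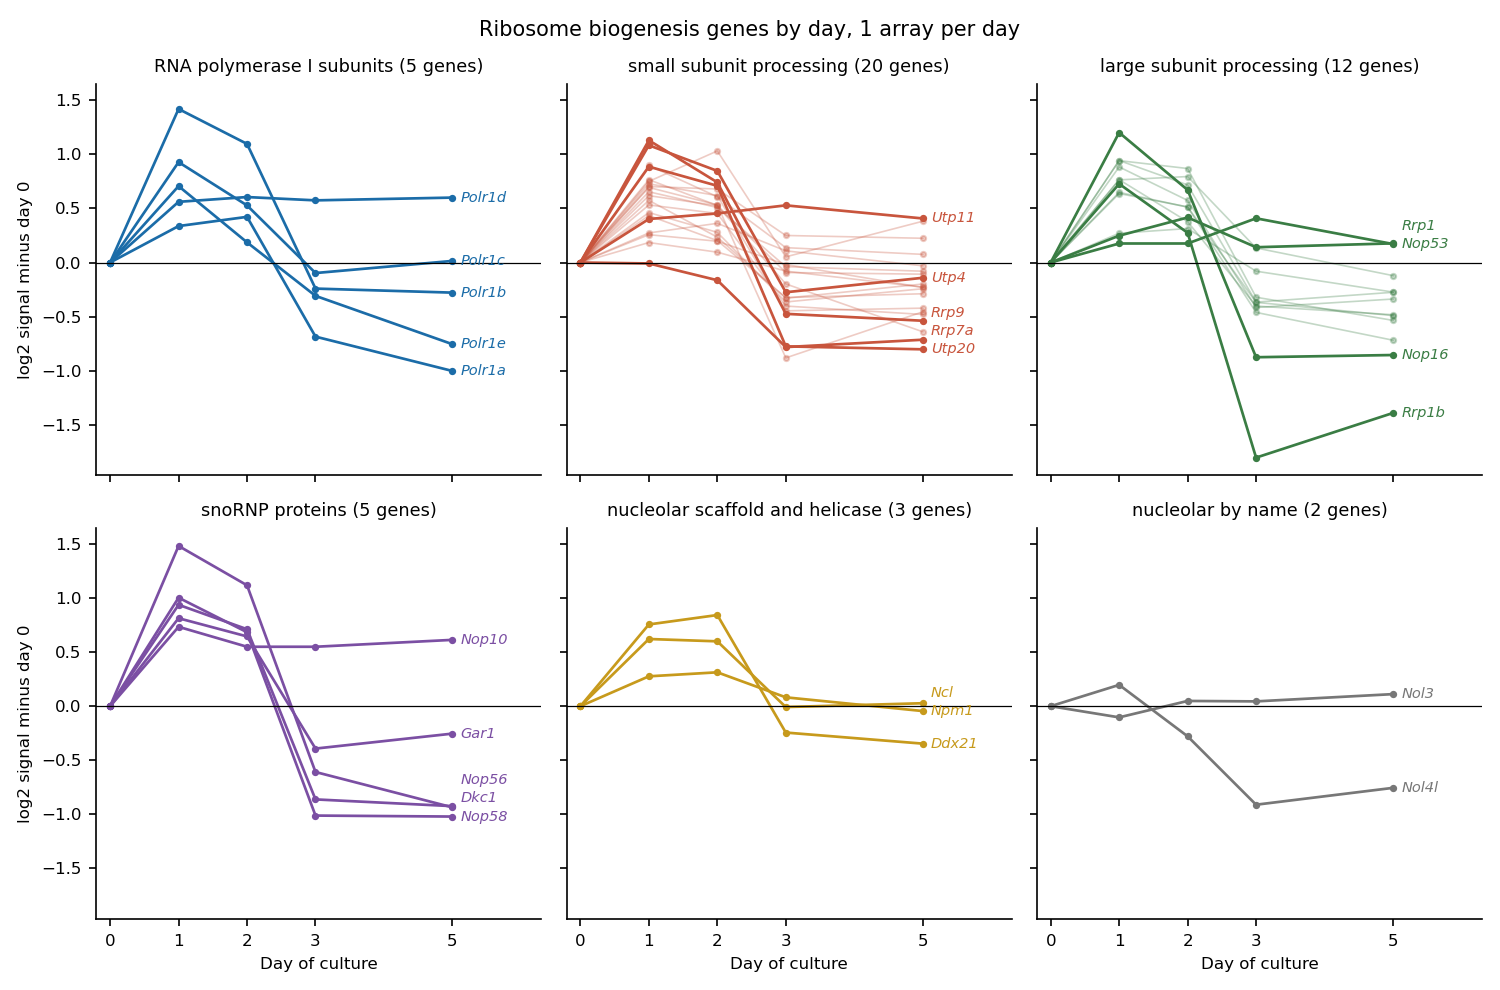
Log2 signal minus the day 0 value (vertical axis) by day of culture (horizontal axis) for the 47 measured genes in 6 panels by role, each line 1 gene with 1 array per day and darker lines named at the right. Most lines peak at day 1 or day 2 and drop at day 3, and 11 of the 47 end above 0, with Nop10 and Polr1d highest.

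The snoRNP proteins had the largest day 3 decrement of the role groups by median. Their median was 0.94 at day 1 against day 0, -1.58 at day 3 against day 2 and -0.92 at day 5 against day 0 over 5 genes. Dkc1, the pseudouridine synthase of the H/ACA snoRNPs and of telomerase, read 8.53, 10.02, 9.65, 7.92 and 7.60. It was 2.80-fold higher at day 1 than at day 0, the largest such difference among the 47, and 5.35-fold lower at day 5 than at day 1. Nop58 and Nop56 form the core of the C/D snoRNPs, which carry the methyltransferase fibrillarin. Nop58 read 9.97, 10.97, 10.65, 8.95 and 8.94, and its day 3 value was 3.24-fold below day 2. Nop56 read 10.13, 11.07, 10.85, 9.27 and 9.21, with a day 3 value 2.98-fold below day 2. In the rows used here these 3 genes had their lowest values on days 3 and 5, below day 0 in each case. For Nop56, a dimmer row gave -1.79 at day 3 against day 2, and another gave 0.00 and was lowest at day 0. The mean over the rows of Nop56 was -1.12 in that step.

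The other proteins of the H/ACA particle, which bind together with Dkc1, did not share its range. Gar1 read 7.37, 8.18, 8.02, 6.98 and 7.12, 1.76-fold higher at day 1 than at day 0 and 2.05-fold lower at day 3 than at day 2 (-0.97 on the log2 scale, short of 2-fold, with arrays centred on the median of all measured genes). Nop10, a small protein that contacts Dkc1 directly, read 10.58, 11.31, 11.13, 11.13 and 11.19. Its day 1 increment of 0.73 was close to that of Gar1 (0.81), but its value was the same at days 2 and 3 and it ended 0.61 above day 0. Many measured genes had such a tie between days 2 and 3, so it does not show an exactly constant level. Polr1d and Nop10 were the only genes of the 47 at least 1.5-fold higher at day 5 than at day 0 (2 of 47, where 13.3% of all measured genes were). At least 1.5-fold lower were 12 of 47, a larger share than the 14.0% of all measured genes.

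The large subunit group held the gene with the largest day 3 step. Rrp1b, a nucleolar relative of Rrp1, read 7.41, 8.14, 7.68, 5.60 and 6.02. Its day 3 value was 4.23-fold below day 2, the largest decrement of any of the 47 in this step, and its day 5 value was 2.63-fold below day 0. Rrp1 itself read 9.63, 9.87, 10.04, 9.77 and 9.80, all within 0.42 of day 0. The paralogues therefore differed by their size of change at day 3, -2.08 for Rrp1b and -0.28 for Rrp1.

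Nop16, a nucleolar protein of large subunit assembly, read 10.14, 11.35, 10.82, 9.27 and 9.29, 2.30-fold higher at day 1 than at day 0 and 2.92-fold lower at day 3 than at day 2. Pes1, Bop1 and Wdr12 form a complex that large subunit maturation depends on, and their values moved by unequal amounts. Pes1 read 11.13, 11.40, 11.44, 11.05 and 10.85, within a range of 0.59. Bop1 read 10.08, 10.71, 10.59, 9.71 and 9.59, and Wdr12 read 8.63, 9.51, 9.20, 8.21 and 8.29. All 3 were higher on days 1 and 2 than on the other days, with day 3 against day 2 at -0.39 for Pes1, -0.88 for Bop1 and -0.99 for Wdr12.

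Nop53, which brings the RNA exosome to pre-ribosomes, was the exception of this group with a highest value at day 3: it read 10.25, 10.43, 10.43, 10.66 and 10.43. Of the remaining 5 large subunit genes, the RNA methyltransferase Nop2 and Rrp15 were at least 2-fold lower at day 3 than at day 2 (-1.19 and -1.08). The polynucleotide kinase Nol9 was next (-0.97), and it was also among the lowest of the group at day 5 against day 0 (-0.72). In the whole group, 12 of 12 were higher at day 1 than at day 0 (median 0.75) and 11 of 12 lower at day 3 than at day 2 (median -0.93). These directions held for 49.1% and 45.5% of all measured genes.

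Among 20 genes of small subunit processing, 19 were higher at day 1 than at day 0 (median 0.64) and 19 lower at day 3 than at day 2 (median -0.62). These directions held for 49.1% and 45.5% of all measured genes. Rrp9, a protein of the snoRNP that directs the early cuts of the precursor, read 8.07, 9.20, 8.81, 7.60 and 7.53. Its day 1 value was 2.19-fold that of day 0, and days 3 and 5 were its lowest arrays. Utp4, a processome subunit also known as cirhin, read 9.92, 11.00, 10.77, 9.64 and 9.78, 2.12-fold higher at day 1. Utp20, one of the large scaffold proteins of the processome, read 8.24, 9.13, 8.95, 7.46 and 7.44, and its day 3 value was 2.80-fold below day 2, the largest of this group. In all 5 of 20 were at least 2-fold lower in that step, where 3.91% of all measured genes were. The others were Nol10 (-1.42), Rrp9 (-1.22), Utp4 (-1.12) and Utp18 (-1.07). Utp18 ended just short of 2-fold when arrays were centred on the median of all measured genes.

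A few small subunit genes differed from the rest in part or all of their course. Rrp12, which helps export pre-ribosomes from the nucleus, read 7.26, 8.01, 8.30, 7.32 and 7.64. It had the day 3 step of the group (-0.98 against day 2). It differed in being highest at day 2, when it stood 1.03 above day 0, and in ending 0.38 above day 0. Utp11 read 10.42, 10.82, 10.87, 10.94 and 10.82, with no step at day 3 and a value 0.41 above day 0 at day 5. Rrp7a read 6.94, 6.93, 6.78, 6.16 and 6.23 in its brightest row, close to level over days 0 and 1, and 6.24, 6.11, 6.32, 6.16 and 6.22 in its other row, which had little step at day 3 (-0.16). The other 14 genes of the group lay between -0.64 (Nol11) and 0.22 (Nol7) at day 5 against day 0, and between -0.18 (Utp3) and -1.42 (Nol10) at day 3 against day 2.

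Of the abundant nucleolar proteins, Ncl and Ddx21 followed the common course and Npm1 hardly moved in its brightest row. Nucleolin, Ncl, which binds ribosomal DNA and pre-ribosomal RNA, read 11.06, 11.69, 11.67, 11.06 and 11.09. Days 0, 3 and 5 lay within 0.04 of each other, and days 1 and 2 stood 1.54-fold and 1.52-fold above day 0. Ddx21, an RNA helicase of RNA polymerase I transcription and processing, read 10.06, 10.82, 10.91, 9.82 and 9.72. Its second measured row gave a smaller day 3 step, -0.48 against -1.09, and a day 5 value above day 0 (0.30 against -0.35). The mean of both rows was -0.78 for the day 3 step, short of 2-fold. The histone chaperone and nucleolar scaffold nucleophosmin, Npm1, read 12.12, 12.39, 12.43, 12.20 and 12.07. Its other row read 6.89, 7.96, 7.84, 6.47 and 6.73, a difference of 1.08 at day 1 where the brightest row gave 0.28. Npm1 has many near-identical copies in the genome, so which transcripts each row reads is uncertain.

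Members by name only had no common course. Nol3, a repressor of apoptosis rather than a ribosome factor, read 5.33, 5.23, 5.38, 5.37 and 5.44, all close to the filter level. Nol4l read 7.64, 7.84, 7.36, 6.73 and 6.89, and was 0.91 below day 0 at day 3. Nol4, below the filter by its mean of 4.53, read 3.66, 4.0, 4.41, 5.58 and 5.01. It was 1.91 above day 0 at day 3, but the first 3 of these values lie where the method compresses differences.

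Genes with a larger increment on the first day mostly had a larger decrement at day 3. The differences of day 1 from day 0 and of day 3 from day 2, which share no array, had a Pearson correlation of -0.69 and a Spearman correlation of -0.71 across the 47 genes. The same correlations were -0.33 and -0.35 across all 12049 measured genes. The genes were read on the same 4 arrays and are not independent replicates, so these values are a description. Of the 47, 42 (89.4%) were both higher at day 1 than at day 0 and lower at day 3 than at day 2, where 29.3% of all measured genes were.

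**Figure D3:**
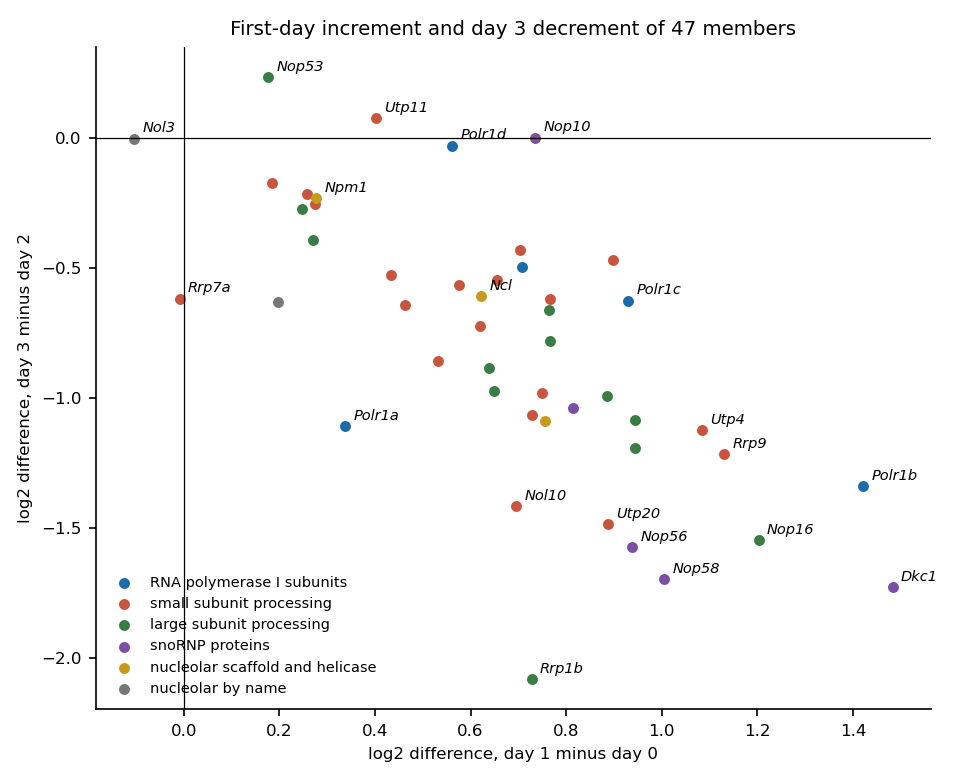
Log2 difference of day 1 from day 0 (horizontal axis) against that of day 3 from day 2 (vertical axis), 1 point for each of the 47 measured genes, coloured by role. Dkc1, Polr1b and Nop16 lie at the lower right, Rrp1b lowest, and Nop10, Polr1d, Utp11 and Nop53 at or near 0 on the vertical axis.

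Other genes of the same pathway, listed by function and not by symbol, followed a like course. These lists were also chosen with earlier results of these data known. Of 44 measured large subunit assembly factors, 44 were higher at day 1 than at day 0 (median 0.65) and 40 lower at day 3 than at day 2 (median -0.67, 9 of them at least 2-fold). These directions held for 49.1% and 45.5% of all measured genes, with 3.91% at least 2-fold lower at day 3 than at day 2. The lowest at day 5 against day 0 were the helicase Ddx51 (-0.92) and Nvl (-0.70), and the highest were Efl1 (0.64), a GTPase of late maturation, and the nuclease Las1l (1.42). Las1l read 7.34, 7.92, 8.87, 9.04 and 8.75, so it lacked the day 3 step. In the remaining small subunit list, 32 of 33 were higher at day 1 (median 0.55) and 33 of 33 lower at day 3 than at day 2 (median -0.66, 8 at least 2-fold). Its extremes at day 5 against day 0 were Pwp2 (-0.90) and Bysl (-0.77) at the low end, and Esf1 (0.19) and Fcf1 (0.44) at the high end.

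Of 10 snoRNP assembly factors, 10 were higher at day 1 (median 0.78) and 10 lower at day 3 than at day 2 (median -0.62). These directions held for 49.1% and 45.5% of all measured genes. Nufip1 (-0.50) and Snu13 (-0.49) were lowest at day 5 against day 0, and Nhp2 (0.11), the remaining protein of the H/ACA particle, and Pih1d1 (0.12) highest. The RNA exosome, the nuclease that trims ribosomal RNA ends, was listed together with cofactors and the separate nuclease Xrn2. In this list 13 of 13 were higher at day 1 (median 0.62) and 13 of 13 lower at day 3 than at day 2 (median -0.53). The exosome nuclease Dis3 (-0.78) and Exosc8 (-0.75) were lowest of the list at day 5 against day 0, with the cofactor Mphosph6 (0.01) and Exosc3 (0.17) highest.

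A further list for RNA polymerase I held loading and assisting factors together with the subunits Twistnb, Znrd1, Cd3eap, Polr2e, Polr2f, Polr2k and Polr2l. Of 16 measured, 16 were higher at day 1 (median 0.42) and 14 lower at day 3 than at day 2 (median -0.51). These directions held for 49.1% and 45.5% of all measured genes. Nolc1, a nucleolar chaperone of snoRNPs, read 9.21, 10.47, 10.36, 8.88 and 9.03. Tcof1, treacle, which couples RNA polymerase I transcription to processing, read 9.58, 10.22, 9.71, 8.35 and 8.44 and was the one gene of this list at least 2-fold lower at day 5 than at day 0. Both had days 3 and 5 as their lowest arrays. The initiation factor Rrn3 read 9.30, 9.69, 9.93, 9.52 and 9.34, and the ribosomal DNA-binding factor Ubtf 8.88, 9.20, 9.48, 8.70 and 8.58, both highest at day 2. Next to Tcof1, Taf1a was lowest at day 5 against day 0 (-0.56), and the shared polymerase subunits Polr2k (0.21) and Polr2f (0.80) were highest.

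Structural ribosomal proteins and proliferation genes were also mostly higher at day 1 than at day 0, where 49.1% of all measured genes were. These lists differed at day 3. Their day 1 medians were smaller than that of the 47 ribosome biogenesis genes (0.70). The mitochondrial ribosomal protein median (0.47) was above that of the further RNA polymerase I list (0.42). Of 60 cytosolic ribosomal proteins, 58 were higher at day 1 than at day 0, with a median of 0.30. Day 3 against day 2 had a median of -0.08 with 3 of 60 at least 2-fold lower, where 3.91% of all measured genes were. Many of these proteins have near-identical pseudogene copies, so their rows are uncertain. At day 5 against day 0, Rpl34 (-0.90) and Rpl6 (-0.67) were lowest, and Rps23 (0.50) and Rps29 (0.51) highest. Of 71 mitochondrial ribosomal proteins, 70 were higher at day 1 than at day 0 (median 0.47), and the list stayed above day 0, with a median of 0.33 at day 5 and 0 of 71 at least 2-fold lower at day 3 than at day 2. Its extremes at day 5 against day 0 were Mrpl19 (-0.27), Mrps10 (-0.17), Mrpl52 (1.60) and Mrps35 (1.68). In the S phase and mitosis list 20 of 24 were higher at day 1 than at day 0, with a median of 0.23, and at day 3 its median was -1.77 against day 2, with 22 of 24 past 2-fold. Cdc6, a replication licensing factor, was lowest at day 5 against day 0 (-2.94), followed by the mitotic motor Kif11 (-2.16), with Pcna (-1.03) and Cdt1 (-0.26) at the other end. The S phase and mitosis genes thus moved with the ribosome biogenesis genes in the day 3 step, and their part in that result was not tested.

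Of 10 measured genes of the MYC network, 2 were at least 2-fold higher at day 1 than at day 0 and 1 at least 2-fold lower. Of all measured genes, 2.91% were higher and 4.17% lower by that size. By any size 7 of the 10 were higher and 3 lower, with a median of 0.22. Myc itself read 9.11, 10.37, 9.94, 8.41 and 8.34, so it was 2.38-fold higher at day 1 than at day 0 and lower on days 3 and 5 than on day 0. Mycl, its relative, read 3.78, 7.50, 6.50, 6.07 and 5.69, and was 3.72 higher at day 1, though its first array was too dim for that size to be taken at face value. At day 5 it was still 1.91 above day 0. The repressors that compete for MAX had no common course: Mxd1 read 7.44, 7.82, 7.66, 7.70 and 7.56, highest at day 1 like Myc, Mnt was 0.23 above day 0 at day 1 and Mxi1 stood at -0.19. Mxd3 read 6.54, 5.84, 5.58, 5.33 and 5.51, and Mxd4 read 7.32, 6.23, 6.90, 7.69 and 7.70, lowest at day 1, at -1.10 from day 0. MYC activity was not measured, and its part in the course of the ribosome biogenesis genes was not tested.

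**Figure D4:**
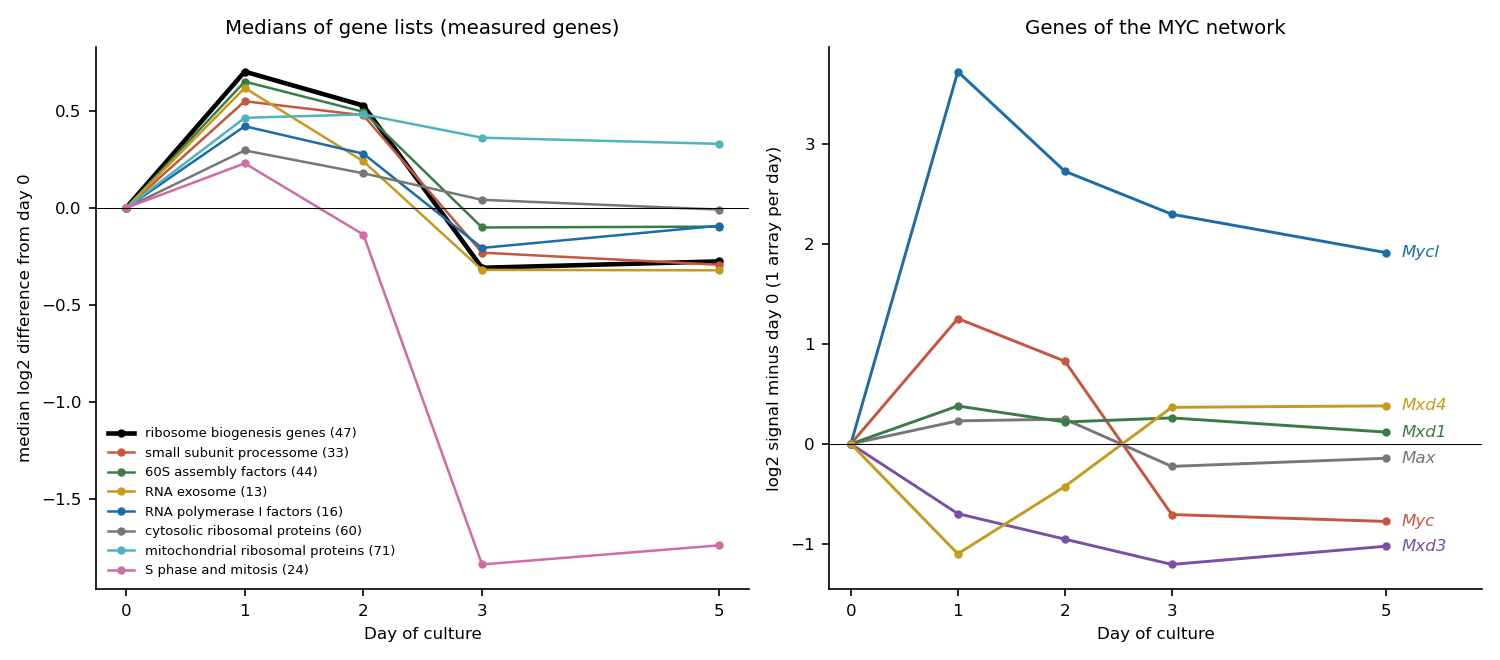
Left, median log2 difference from day 0 by day for the 47 ribosome biogenesis genes (thick black line) and 7 related lists, with the number of measured genes in brackets. Right, log2 signal minus day 0 for 6 genes of the MYC network, 1 array per day. The pathway lists peak at day 1 and lie below 0 at day 3, mitochondrial ribosomal proteins stay above 0, and Myc peaks at day 1 and ends at -0.78.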

How the data were processed

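The deposited table held log2 values for 41345 array rows and 5 arrays. Per the submitters' processing notes, the authors used R 3.4.0 and oligo, and the log2 values are RMA output. Per the labels' protocols, biotinylated cDNA was made from 5 ng of total RNA. RMA quantile normalisation forces one distribution on all arrays, so a shift shared by all genes is invisible, and median polish and background correction compress differences of dim rows. The genome build of the array annotation is not given in the sources used here.

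Rows naming 1 gene (23521) were used. For a gene with several rows (1082 genes, 5 of the 48 here) the row with the highest mean was taken. All 48 symbols matched RefSeq of GRCm38.p6 by Entrez identifier. The filter of 4.89 is the median of row means. Each comparison is a difference of log2 values between 2 arrays, counted at 2-fold or more, without a test. The number of arrays limits precision.

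The ribosome biogenesis genes, the lists and the motif were chosen with earlier results of these data known. Genes named in full were those at least 2-fold apart from day 0 on any day, the extremes of each role at day 5 against day 0, and a set of well-known members. In other lists they were the 2 lowest and 2 highest at day 5 against day 0, with Myc, Rrn3, Ubtf, Nolc1 and Tcof1. Counting was tested on simulated data whose added differences all lay past 2-fold, so it says nothing of genes close to that cut. Alternatives covered scaling, row choice, filter, size, days and membership. Python 3.11.15, numpy 2.4.6, pandas 2.3.3 and matplotlib 3.10.9 were used.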

Additional observations from a re-analysis of the deposited data

How the results depend on the processing

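The medians of the ribosome biogenesis genes kept their sign under all alternatives run. With arrays centred on 10 reference genes by their median level, the scale shifted all measured genes by a median of -0.21 at day 1 against day 0, -0.22 at day 3 against day 2 and -0.49 at day 5 against day 0. Under it the medians of the ribosome biogenesis genes were 0.49, -0.88 and -0.77 for these comparisons, 2 genes in place of 6 passed 2-fold upward at day 1, and 14 in place of 3 passed it downward at day 5. Over all measured genes that scaling gave 416 higher and 1957 lower at day 5 against day 0, where the values as deposited gave 817 and 791. Centring on the reference genes by the median of their own differences from day 0, chosen after seeing the data, gave medians of 0.67, -0.66 and -0.27. Centring on the median of all measured genes left 1 gene at least 2-fold lower at day 5. Counted from 1.5-fold, 30 of 47 genes were higher at day 1 against day 0, where 9.75% of all measured genes were. At day 3 against day 2, 30 of 47 were lower, where 9.6% were. At day 5 against day 0, 2 of 47 were higher and 12 of 47 lower, where 13.3% and 14.0% of all measured genes were. Without the level filter 1 gene, Nol4, was at least 2-fold higher at day 5. With day 1 in place of day 0 the day 5 median was -0.95, with 23 genes at least 2-fold lower. The mean at day 3 against day 2 was -0.78 where the median was -0.66. The remaining 64 alternative values stayed within 0.1 of a median or within 1.5 times a count. For single genes past 2-fold, 88 alternative values stayed past it and 12 ended short of it. The alternatives for single genes and for the counts at day 1 and at day 3 were chosen after seeing the data. No paired analysis was possible because each day had 1 array. Dim rows limit what can be said of Nol3, Nol4 and Mycl.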

Other observations

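Rows that the annotation assigns to several genes were left out of all counts, and the values of those that name a ribosome biogenesis gene are given here, with further rows of Nop56 and Nol11. The row naming Fbl, the methyltransferase fibrillarin, together with Tulp4 read 11.62, 12.26, 12.12, 10.95 and 11.04 at days 0, 1, 2, 3 and 5, highest at day 1 and lowest at day 3. The row naming Rrp8 together with Ilk read 6.78, 7.30, 6.99, 6.41 and 6.79. The row naming Utp14b together with Acsl3 read 7.26, 6.69, 6.84, 7.60 and 7.62, lowest at day 1. A row shared by Nop56 and the small nucleolar RNA gene Snord57 read 6.21, 7.12, 6.66, 5.10 and 5.58. A further row of Nop56 alone read 5.61, 6.89, 6.34, 4.54 and 4.55, highest at day 1 and lowest at days 3 and 5, while another row of Nop56 alone read 5.21, 5.94, 5.36, 5.36 and 5.36, lowest at day 0 and without a day 3 step. A second measured row of Nol11 read 5.35, 5.82, 5.26, 5.35 and 5.35, also without a lower value at day 3. The row naming Nop9 together with Cideb lay below the level filter and read 4.27, 4.28, 4.22, 4.18 and 4.22. Which gene each shared row reads was not tested.

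Targets of p53, the factor that is stabilised when ribosome assembly is disturbed, gave no common direction. Of 9 measured, 2 were at least 2-fold higher at day 5 than at day 0 and 0 at least 2-fold lower, with a median of 0.14. Of all measured genes, 6.78% were higher and 6.56% lower by that size, and 9 genes are too few to compare with these shares. Pmaip1, a death-promoting BCL2 family protein, read 5.62, 6.72, 7.12, 9.02 and 8.86, and Trp53inp1 read 7.35, 6.92, 7.45, 9.07 and 8.75, both with their largest step between days 2 and 3. Cdkn1a, the cell cycle inhibitor, read 12.97, 12.86, 12.13, 11.99 and 11.97, and Mdm2, the ubiquitin ligase that degrades p53, read 9.47, 10.25, 9.41, 9.19 and 9.21.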
